A study of Mus musculus with 6 samples.

Results

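Mouse genes that mark endoderm, the primitive streak and mesoderm were followed in embryonic stem cells with and without 3 linker histone genes. Linker histones sit on the nucleosome at the DNA entry and exit point and help to compact chromatin. The genes were taken from a list of 42 lineage genes, chosen by name, and read through every probe set that the array annotation assigns to one of them alone. Of the 42, 38 had at least 1 such probe set, with 52 probe sets in all among the 12488 on the array. Amn, Trf, T and Mixl1 had none and are not analysed here.

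The arrays came from H1c/H1d/H1e triple-null embryonic stem cell line 1, from H1c/H1d/H1e triple-null line 2 and from wild-type embryonic stem cells, with 2 arrays per line, numbered experiment 1 and experiment 2. All were labelled as total RNA of exponentially growing cells, and the labels used here name no strain, feeder layer or differentiation treatment. Neither the origin of the paired arrays (separate cultures or one) nor the clonality of the null lines is stated in the labels, so every p-value reflects the spread among these arrays alone, which could be technical. The design asks which genes differ when the 3 linker histones are missing.

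In the embryo, the inner cell mass first sets aside primitive endoderm, which needs GATA and SOX factors and forms the visceral and parietal yolk sac endoderm. Visceral endoderm makes serum transport proteins and takes up maternal proteins by endocytosis. The epiblast then forms the primitive streak under WNT, NODAL and FGF signals, and cells that pass through it become mesoderm and definitive endoderm. Undifferentiated embryonic stem cells normally express most of these genes weakly or not at all, and cultures can hold a few spontaneously differentiating cells. In such bulk RNA, fewer cells of a type and less RNA per cell cannot be told apart.

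No lineage gene passed the test between null and wild-type cells, in either null line or between them. Many were not measured above background at all. Of those that were, Wnt3, Fgf8 and Twist1, all grouped here with the primitive streak, read lower on all 4 null arrays than on both wild-type arrays. They were lower by 0.39 to 0.53 on a log2 scale, and none of the 3 passed the adjusted threshold. They are 3 of the 19 lineage genes tested, near the 12% of all probe sets tested that read lower in this way. Twist1, like Snai1, was bright enough to be tested only through its wild-type readings. Without these genes the count was 2 of 17, an alternative chosen after seeing the data. Endoderm genes such as Gata4, Sox17, Afp and Apoe had overlapping groups by their brightest probe sets. Among endoderm probe sets too dim to be tested, some did not overlap. Thbd 162023_f_at and Pdgfra 95079_at read lower on all null arrays, and Foxa2, at background, read higher.

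Signals are linear array intensities, and background on each array was taken as the highest of 19 bacterial and yeast control probe sets, which lay between 9.1 and 17.2 intensity units. The median signal was between 34.1 and 39.5 units per array, and the number of arrays limits the precision. The probe set of H1f2 (H1c) read 11.1 and 11.5 in null line 1 and 13.0 and 14.4 in null line 2, against 70.0 and 68.2 in wild-type cells, in the direction the labels give. Those of H1f3 (H1d) and H1f4 (H1e) were at background on every array and check nothing. All 10 embryonic stem cell markers measured, among them Pou5f1, Sox2 and Nanog, were above background on all 6 arrays, and their summed signal was 5938 to 6522 on null arrays and 5648 to 5820 on wild-type arrays. In the null average 6 of them had positive and 4 negative log2 changes. The largest was that of Fbxo15, which averaged 341 in null and 163 in wild-type cells, so the sum is no measure of the markers as a set.

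A gene with more than 1 probe set is represented by its brightest over the 6 arrays. By that probe set, 17 of the 38 genes were above background on all 6 arrays, 9 on some and 12 on none. Over all probe sets other than controls, 59.5% were above background on all 6 arrays and 22.7% on none. Those shares count every probe set, not only the brightest of each gene, so they are not a like measure.

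**Figure D1:**
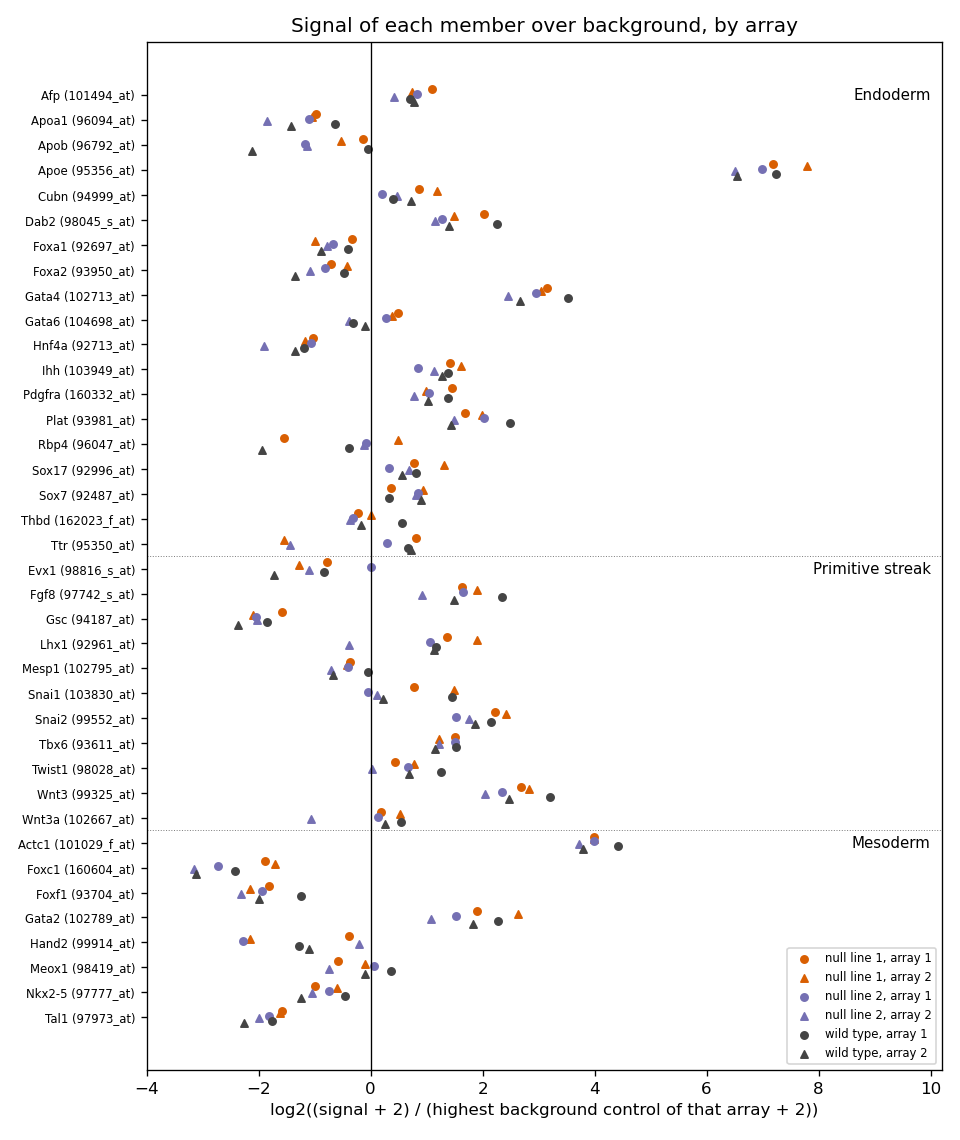
Signal of the 38 lineage genes on each array, by their probe set with the highest mean, as log2 of signal over the highest background control of the same array, with 2 units added to both. The vertical line is background, orange, purple and black mark null line 1, null line 2 and wild type, and circles and triangles mark experiments 1 and 2. Of the 38 genes, 17 lie right of the line on all 6 arrays and 12 on none.

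Upstream sequence was available in RefSeq's promoter table (build GRCm38.p6) for 27 of the 38 genes, taken as the 250 bases before the most upstream listed start. The 4 printed here were chosen because the results turn on them or on their contrast: Wnt3 and Twist1, whose arrays did not overlap, Pdgfra, whose probe sets disagreed, and Afp, a serum protein gene whose groups overlapped. Capitals mark CG dinucleotides and the letters TATAAA on either strand, and each sequence runs 5′ to 3′ on the gene's strand, which is + for all 4.
Wnt3, chr11:103773925-103774174: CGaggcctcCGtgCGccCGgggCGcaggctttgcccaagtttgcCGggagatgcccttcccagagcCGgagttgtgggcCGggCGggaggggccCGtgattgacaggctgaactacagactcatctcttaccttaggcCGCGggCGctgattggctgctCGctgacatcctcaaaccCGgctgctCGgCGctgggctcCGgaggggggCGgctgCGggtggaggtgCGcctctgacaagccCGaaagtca
Twist1, chr12:33957421-33957670: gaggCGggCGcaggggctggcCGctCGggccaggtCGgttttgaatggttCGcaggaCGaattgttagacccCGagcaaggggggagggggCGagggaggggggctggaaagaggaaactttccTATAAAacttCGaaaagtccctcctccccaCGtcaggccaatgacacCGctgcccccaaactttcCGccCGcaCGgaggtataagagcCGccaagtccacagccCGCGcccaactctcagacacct
Pdgfra, chr5:75152001-75152250: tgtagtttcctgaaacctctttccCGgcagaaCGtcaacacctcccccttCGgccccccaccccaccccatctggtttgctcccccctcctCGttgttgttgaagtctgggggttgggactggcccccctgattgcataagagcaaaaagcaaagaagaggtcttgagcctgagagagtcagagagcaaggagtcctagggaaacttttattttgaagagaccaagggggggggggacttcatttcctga
Afp, chr5:90490464-90490713: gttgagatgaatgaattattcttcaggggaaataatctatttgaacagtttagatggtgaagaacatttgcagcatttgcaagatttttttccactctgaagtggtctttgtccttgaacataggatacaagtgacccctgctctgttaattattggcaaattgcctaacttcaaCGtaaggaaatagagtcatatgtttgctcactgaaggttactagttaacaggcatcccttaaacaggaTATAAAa

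These windows held 22 CG dinucleotides for Wnt3, 18 for Twist1, 4 for Pdgfra and 1 for Afp, against a median of 6 over the 27025 genes of the table. TATAAA, searched on both strands, was in the windows of Twist1 and Afp, in 5 of the 27 lineage genes and in 13.0% of all genes. At least 10 CG dinucleotides were in 12 of the 27, against 38.2% of all genes. The median was 6 for the 11 genes above background on all arrays, 26 for the 5 above it on some and 7 for the 11 on none. CG-rich windows were found both for Wnt3 and for Foxc1, which had 29 and was at background on every array.

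Among the transcription factors of endoderm, Gata4, Sox7 and Sox17 were above background on every array. Gata4, a zinc finger factor of primitive endoderm and heart, read 122.7 and 89.1 in null line 1, 110.2 and 100.6 in null line 2, and 127.3 and 119.6 in wild-type cells. The groups overlapped, since 1 array of null line 1 lay between the wild-type arrays. In the average of the null lines, Gata4 was at -0.23 ± 0.16 on the log2 scale (SE; limma adjusted p = 0.591). The 95% interval, -0.61 to 0.15, included 0.

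Sox17, which specifies endoderm, averaged 22.9 ± 5.29 in null cells (SD, n = 4) and 22.0 ± 6.08 in wild-type cells (SD, n = 2). Sox7, its relative in primitive endoderm, averaged 22.5 ± 6.53 and 22.9 ± 15.4 on the same arrays, and the 2 wild-type arrays read 12.0 and 33.8. With wild-type arrays that far apart, the 95% interval of the Sox7 change ran from -0.79 to 0.98. Gata6, which starts the primitive endoderm programme, read 17.6 and 12.4 in null line 1, 15.5 and 12.4 in null line 2, and 7.0 and 15.8 in wild-type cells. Only 3 of these 6 readings, all from null arrays, exceeded the background of their own array. Within experiment 2 both null readings were below the wild-type reading. The gene lay below the filter on low signals and was not tested in the filtered fit. A second Gata6 probe set, 93925_at, was above background on 2 null arrays and 1 wild-type array, and averaged 10.6 in null line 1, 14.6 in null line 2 and 11.8 in wild-type cells. Foxa1, Foxa2 and Hnf4a, factors of definitive endoderm and liver, were at background on all 6 arrays, with means of 7.2, 6.5 and 3.92 units in null cells and 7.45, 5.8 and 4.2 in wild-type cells.

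Of the 6 secreted transport proteins of yolk sac and liver that were measured, Apoe and Afp were above background on all arrays. Apoe, a lipid carrier made by many cell types besides endoderm, read 2041 and 2461 in null line 1, 1833 and 1708 in null line 2, and 1689 and 1777 in wild-type cells. Both arrays of null line 1 were above the wild-type arrays, while those of null line 2 overlapped them. The log2 change of Apoe was 0.37 in null line 1 (limma adjusted p = 0.502) and 0.03 in null line 2 (adjusted p = 0.951), and the difference between the lines was 0.34 (95% interval -0.01 to 0.69, adjusted p = 0.627). Afp, the main serum protein of the fetus, averaged 22.9 ± 4.79 in null cells (SD, n = 4) and 23.6 ± 10.3 in wild-type cells (SD, n = 2).

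Ttr, which carries thyroid hormone and retinol-binding protein, read 22.4 and 1.8 in null line 1, 15.7 and 4.9 in null line 2, and 15.7 and 29.5 in wild-type cells. In each null line the experiment 1 array was above background and the experiment 2 array was not, whereas both wild-type arrays were above it. The gene lay below the filter and was not tested in the filtered fit. Rbp4, the retinol carrier, was above background on 1 of 6 arrays, and Apoa1 and Apob, of lipoprotein particles, on none.

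Among genes of uptake and of the cell surface, Dab2 and Pdgfra gave different readings by probe set. Dab2, an endocytic adaptor of yolk sac endoderm, read 55.1 and 29.2 in null line 1, 33.1 and 39.7 in null line 2, and 51.6 and 48.4 in wild-type cells with probe set 98045_s_at. The null arrays overlapped the wild-type arrays, with 1 array of null line 1 above both and the other 3 below. The log2 change was -0.37 ± 0.25 (SE, limma adjusted p = 0.584), and the other probe sets of Dab2 were at 0.16 (104633_at, adjusted p = 0.642) and -0.11 (98044_at, adjusted p = 0.777). Direction thus depended on the probe set. Cubn, a receptor for endocytosis of vitamin and lipid carriers, averaged 21.3 ± 4.43 in null cells and 21.2 ± 12.1 in wild-type cells (SD, n = 4 and 2).

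Pdgfra, a growth factor receptor of primitive endoderm and mesoderm, read 36.4 and 20.0 in null line 1, 28.0 and 30.2 in null line 2, and 27.3 and 37.2 in wild-type cells with probe set 160332_at. Those groups overlapped, and the log2 change was -0.17 ± 0.25 (SE, limma adjusted p = 0.822). Its probe set 95079_at, singled out after its values were seen, read 12.9 and 7.8 in null line 1, 10.4 and 11.7 in null line 2, and 25.8 and 32.0 in wild-type cells. There all 4 null arrays lay below both wild-type arrays, and 3 of the 4 were at background, against 0 of the 2 wild-type arrays. Both arrays of null line 2 were at background, which puts the line at least 1.98-fold lower than wild type. That fold is a bound without an error. The probe set lay below the filter and was not tested in the filtered fit. Without the filter its log2 change was -1.29 in the null average (limma adjusted p = 0.278) and -1.24 in null line 2 (adjusted p = 0.325). The remaining probe set of Pdgfra was at background on every array.

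Plat, the tissue plasminogen activator of parietal endoderm, read 43.0 and 42.2 in null line 1, 56.9 and 50.8 in null line 2, and 60.5 and 49.8 in wild-type cells. Null line 1 lay below the other 4 arrays and null line 2 within the range of wild type. The log2 change of Plat was -0.35 in null line 1 (limma adjusted p = 0.525) and -0.03 in null line 2 (adjusted p = 0.954), and the difference between the lines did not pass (adjusted p = 0.627). Ihh, a hedgehog ligand of visceral endoderm, averaged 32.6 ± 6.36 in null cells and 35.8 ± 11.9 in wild-type cells (SD, n = 4 and 2). Thbd, the thrombin receptor of parietal endoderm, was above background on 1 null array and 1 wild-type array. Its brightest probe set, 162023_f_at, read 9.2 to 12.6 on the 4 null arrays, against 14.5 and 15.1 in wild-type cells. Every null array was below both wild-type arrays, and the gene lay below the filter and was not tested in the filtered fit. The other Thbd probe set, 104601_at, was at background on every array. It averaged 7.5 in null and 6.2 in wild-type cells, the opposite direction.

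Among the genes tested, the 3 whose arrays did not overlap were the ligands Wnt3 and Fgf8 and the mesenchymal factor Twist1, all grouped here with the primitive streak. Over all 7453 probe sets tested, 12% had all null arrays below both wild-type arrays and 11% had them above. Among the 19 lineage genes tested, 3 lay below and 0 above, so the share below was near the background. These 3 were also the only tested lineage genes with an unadjusted p under 0.05, against 12.7% of all probe sets tested and 7.16% on the lower side. Twist1 and Snai1 had null means under the filter and passed it through their wild-type readings. Without these genes both counts were 2 of 17, an alternative chosen after seeing the data.

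Wnt3, the ligand needed to form the streak, read 88.2 and 76.7 in null line 1, 71.3 and 75.0 in null line 2, and 101.1 and 104.0 in wild-type cells. Every null array was below both wild-type arrays. Wnt3 averaged 77.8 ± 7.29 in null cells (SD, n = 4) and 103 ± 2.05 in wild-type cells (SD, n = 2). The change on the log2 scale was -0.39 ± 0.11 (SE, 95% interval -0.67 to -0.12, limma adjusted p = 0.256). It was -0.34 within experiment 1 and -0.45 within experiment 2, where single wild-type arrays leave no test.

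Fgf8, a growth factor that moves cells out of the streak, read 41.5 and 39.6 in null line 1, 43.2 and 33.5 in null line 2, and 55.2 and 52.2 in wild-type cells. Again the groups did not overlap. The log2 change was -0.43 ± 0.13 (SE, 95% interval -0.76 to -0.10, limma adjusted p = 0.286), and it was -0.37 and -0.50 within experiments 1 and 2.

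Twist1, a factor of mesenchymal cells and mesoderm, read 17.0 and 17.0 in null line 1, 20.9 and 17.2 in null line 2, and 24.9 and 28.8 in wild-type cells. Every null array was below both wild-type arrays, and 1 of them, at 17.2 units, was barely above its background of 16.8. The log2 change was -0.53 ± 0.13 (SE, 95% interval -0.84 to -0.22, limma adjusted p = 0.193). Its mean over all arrays, 21.0 units, was just over the filter of 20.9, which it passed through its wild-type readings. Without either wild-type array it no longer passed the filter.

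**Figure D2:**
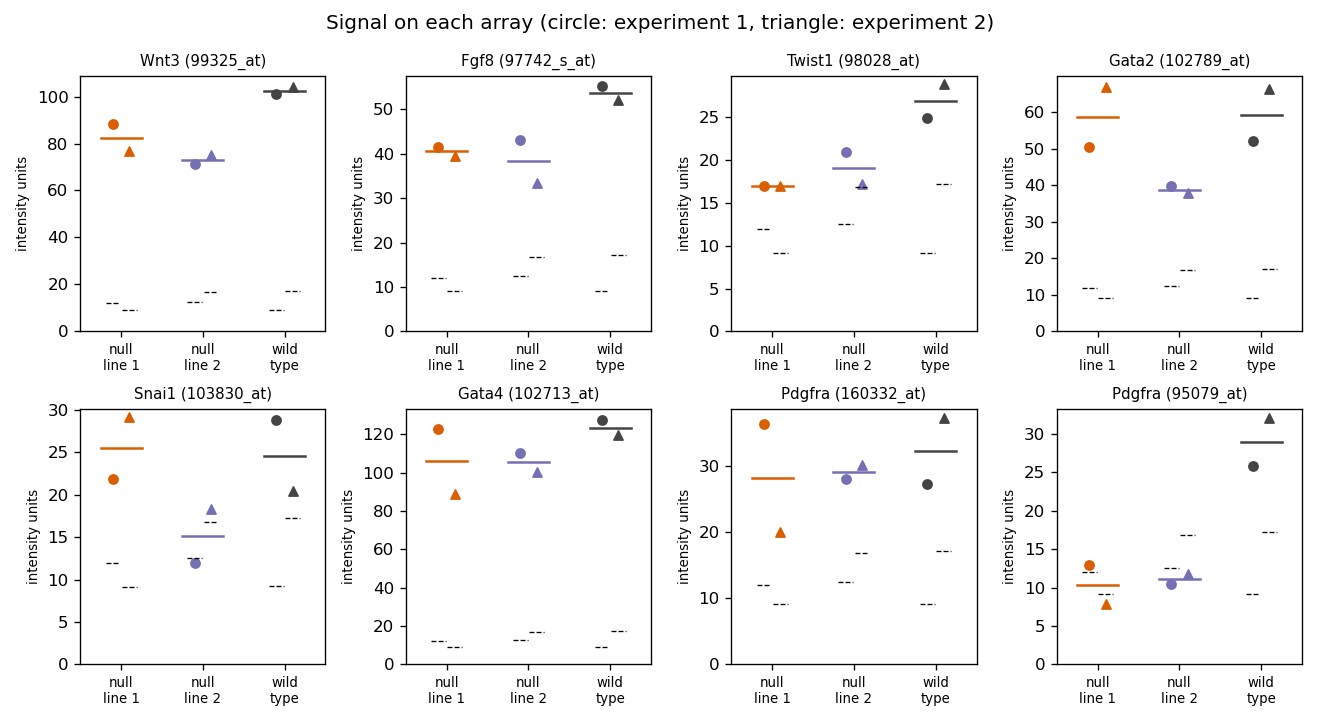
Signal in intensity units on each array for 7 genes and 8 probe sets, with null line 1, null line 2 and wild type from left to right. Circles are experiment 1, triangles experiment 2, horizontal bars the mean of each line, and dashed marks the highest background control of the same array. For Wnt3, Fgf8, Twist1 and Pdgfra probe set 95079_at, all null arrays lie below both wild-type arrays.

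Snai1 and Snai2, repressors that drive the passage from epithelium to mesenchyme, had groups that overlapped. Snai1 read 21.9 and 29.1 in null line 1, 12.0 and 18.3 in null line 2, and 28.8 and 20.4 in wild-type cells. Both arrays of null line 2 were below the other 4, and 1 of them was at background. The log2 change of Snai1 was 0.05 in null line 1 (limma adjusted p = 0.973) and -0.64 in null line 2 (adjusted p = 0.344). The difference between the lines was 0.69 (95% interval 0.07 to 1.32, unadjusted p = 0.0343, adjusted p = 0.627). Snai2 averaged 55.4 ± 10.7 in null cells and 57.5 ± 14.3 in wild-type cells (SD, n = 4 and 2).

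Lhx1, a LIM factor of the streak and its anterior derivatives, read 34.0 and 39.4 in null line 1, 28.2 and 12.4 in null line 2, and 23.0 and 40.2 in wild-type cells, and the 12.4 reading was at background. Tbx6, a T-box factor of paraxial mesoderm, averaged 35.7 ± 8.07 in null cells and 35.2 ± 7.28 in wild-type cells (SD, n = 4 and 2). Wnt3a, a ligand of the later streak, read 13.9 and 14.0 in null line 1, 13.8 and 7.0 in null line 2, and 14.4 and 20.8 in wild-type cells. It too was below both wild-type arrays on all null arrays, but by less than 1 unit on 3 of them, and it lay below the filter. Evx1, a homeobox factor of the posterior streak, was above background on 1 array. Gsc, of the anterior streak, and Mesp1, of the first heart and head mesoderm, were at background on all 6.

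Of the mesoderm genes, Gata2 and Actc1 alone were tested. Gata2, a factor of blood progenitors and trophoblast, read 50.5 and 67.0 in null line 1, 39.7 and 37.8 in null line 2, and 52.0 and 66.4 in wild-type cells. Null line 2 was below the other 4 arrays, while null line 1 and wild type covered almost the same range. The log2 change of Gata2 was -0.01 in null line 1 (limma adjusted p = 0.987) and -0.58 in null line 2 (adjusted p = 0.276), and the difference between the lines was 0.56 (95% interval 0.10 to 1.02, unadjusted p = 0.0241, adjusted p = 0.627). Of all probe sets, 21.3% had the arrays of null line 2 on one side of the other 4, 10.3% below and 11.1% above. Among the 19 tested lineage genes 3 did, all below.

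Actc1, the actin of early heart muscle, read 219.8 and 173.1 in null line 1, 229.3 and 246.6 in null line 2, and 237.5 and 264.6 in wild-type cells with probe set 101029_f_at. Null line 1 was below the other arrays, and null line 2 overlapped wild type. Among the 19 tested lineage genes the arrays of null line 1 lay below the other 4 for 3 and above for 1, against 6.82% and 6.67% of all probe sets. The log2 change of Actc1 in the null average was -0.22 ± 0.14 (SE, limma adjusted p = 0.570). The suffix of that probe set marks a family of related sequences, so it may also read other actins. Acta2, smooth muscle actin, averaged 345 ± 60.6 in null cells and 561 ± 68.1 in wild-type cells, and its part in the Actc1 reading was not tested. The other Actc1 probe set, 101028_i_at, was above background on 3 null arrays and 1 wild-type array. It averaged 15.75 in null and 13.6 in wild-type cells, the opposite direction, with groups that overlapped. That probe set lay below the filter, and without the filter its log2 change was 0.16 in the null average (limma adjusted p = 0.874). Meox1, of somites, was above background on 1 null and 1 wild-type array. Hand2 and Nkx2-5, of the heart, Foxc1 and Foxf1, of paraxial and lateral mesoderm, and Tal1, of blood, were at background on every array.

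Across the 19 tested genes, the fit gave 0 calls in the null average, against 0.416% of all probe sets (0.282% higher and 0.134% lower). Null line 1 against wild type likewise gave 0 of 19, against 0.134%, and null line 2 gave 0 of 19, against 0.255%. The line 1 against line 2 contrast gave 0 of 19, against 0.0268%. By unadjusted p under 0.05, 3 of 19 were counted in null line 1, 5 in null line 2 and 2 between the lines, against 9.49%, 14.1% and 7.55% of all probe sets. Both null lines were compared with the same 2 wild-type arrays.

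**Figure D3:**
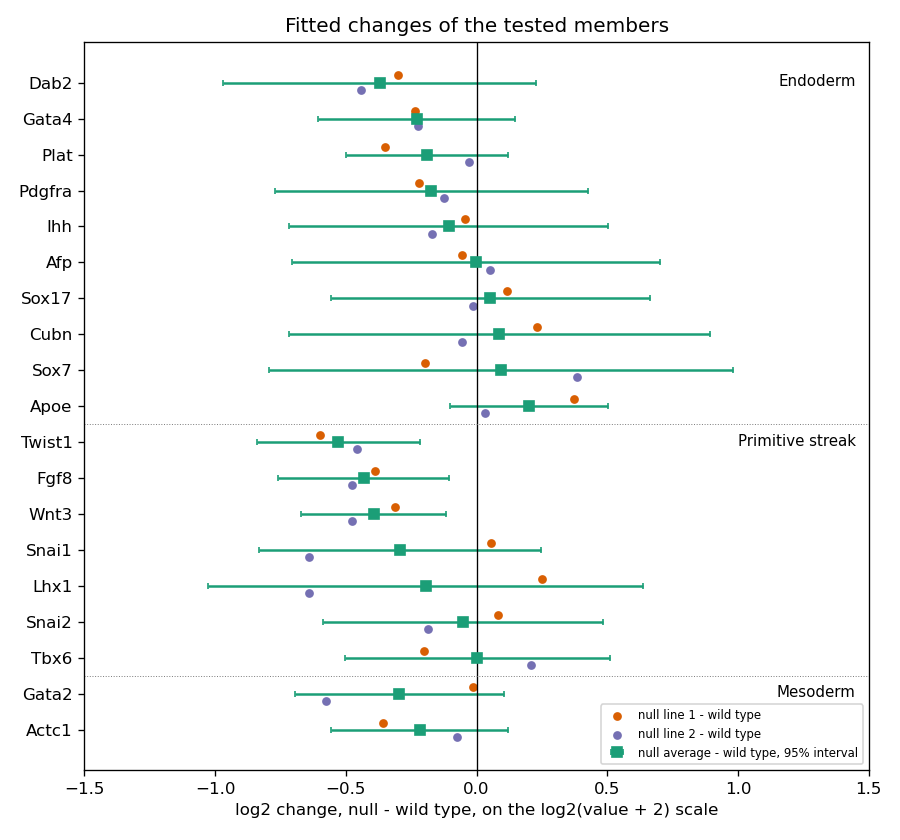
Log2 change of the 19 tested lineage genes, null minus wild type, on the log2(value + 2) scale. Green squares with bars are the null average and its 95% interval, orange and purple dots are null lines 1 and 2. The intervals of Twist1, Fgf8 and Wnt3 lie below 0 before any adjustment, and no gene passed adjusted p 0.05.

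By group, the median log2 change in the null average was -0.05 for 10 endoderm genes, of which 6 were negative. It was -0.29 for 7 primitive streak genes, of which 6 were negative (-0.20 and 4 of 5 without Twist1 and Snai1). For the 2 mesoderm genes it was -0.26. Both were negative by their brightest probe sets, but the dimmer Actc1 probe set, below the filter, was not. Over all 7453 probe sets the median was -0.01, and 52.7% were negative. The medians moved with single wild-type arrays. Without replicate 1 of wild type they were -0.36 for endoderm and -0.39 for streak genes, and without replicate 2 they were 0.22 and -0.10. Within both experiments the change was negative for 8 of the 19 genes and positive for 2, against 32.9% and 29.4% of all probe sets. Sox7, Afp, Cubn, Tbx6, Pdgfra, Ihh, Snai2 and Lhx1 were positive within experiment 1 and negative within experiment 2. The values were 0.62 and -0.43 for Sox7, 0.60 and -0.61 for Afp and 0.40 and -0.79 for Lhx1. Snai1 alone ran the other way, with -0.75 and 0.17. The share of all probe sets with either pattern was not counted.

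**Figure D4:**
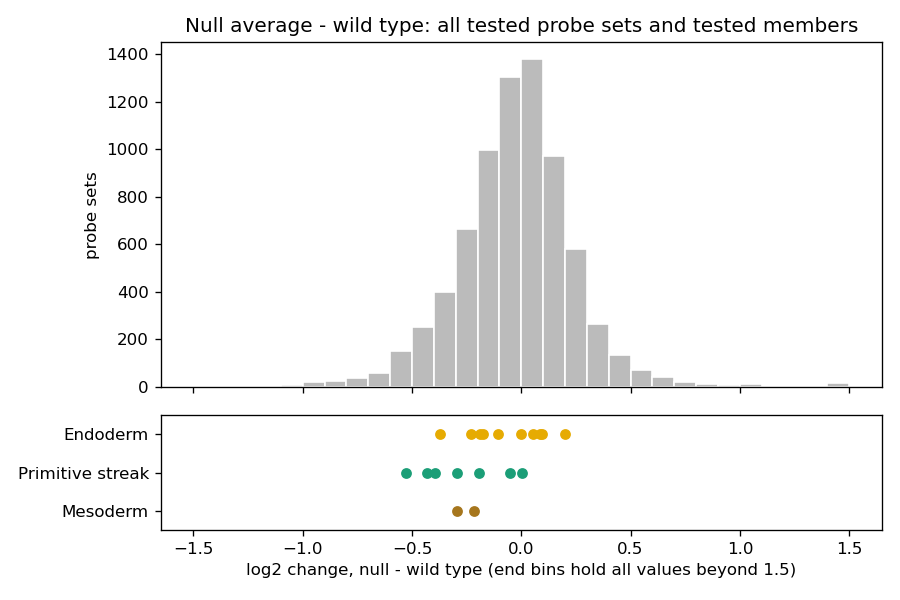
Number of tested probe sets by log2 change in the null average minus wild type (grey bars, 0.1 wide, the end bins holding everything beyond 1.5), with the 19 tested lineage genes by group as dots below. The lineage genes run from -0.53 to 0.20, and the 5th percentile of all tested probe sets is -0.47.

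Other genes of these lineages were read from 2 further lists. Both lists were chosen with earlier results of these data known, so their counts and medians are descriptions and no independent support. Of 12 tested further endoderm genes, 11 had negative changes and Sox18 alone a positive one (0.07). Among the 11, only the basement membrane collagen Col4a2 was called lower (194 ± 10.5 in null and 349 ± 6.51 in wild-type cells, limma adjusted p = 0.0433). Of all probe sets tested, 52.7% were negative and 0.134% were called lower. The Col4a2 call passed in neither null line alone (adjusted p = 0.0772 in line 1 and 0.0912 in line 2) and in none of the 6 fits without 1 array, where adjusted p was 0.104 to 0.396. The median of the list was -0.37, and Krt8, a keratin of simple epithelia, had a change of -0.71 ± 0.11 (SE, adjusted p = 0.0924). That list holds laminins, type IV collagens and keratins, which many epithelial and stromal cells also make. Of 16 further streak and mesoderm genes none passed, 12 had negative changes and the median was -0.19. Flt1, a VEGF receptor of vessels, read 14.0 and 10.4 in null line 1, 9.3 and 40.7 in null line 2, and 64.5 and 65.2 in wild-type cells (limma adjusted p = 0.213). The null reading of 9.3 was at background, 1 null reading stood well above the other 3, and the null mean of 18.6 was under the filter, which Flt1 passed through its wild-type readings. Hand1, of lateral and extraembryonic mesoderm, was at -0.39 ± 0.12 on the log2 scale (SE, limma adjusted p = 0.281).

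Fibroblast markers, which a feeder layer would add, summed to 1912 to 2260 on null arrays and 2566 to 2661 on wild-type arrays over 13 genes, and 6 of the 13 were above background on all arrays. The difference in the sum lay in its 2 brightest genes, Tagln and Acta2, genes of contractile cells, a split made after the values were seen. Together they summed to 1176 to 1573 on null arrays and 1873 to 1885 on wild-type arrays. The other 11 summed to 687 to 755 on null arrays and 693 to 776 on wild-type arrays, which overlap, but single genes differed in both directions. Timp3 averaged 38.7 in null and 62.2 in wild-type cells, and Dcn 14.6 and 24.8. Thy1 averaged 14.9 and 6.25, and Col5a2 23.35 and 14.5. Dcn, Thy1 and Col5a2 lay below the filter. None of the 6 tested passed, with Timp3, a metalloprotease inhibitor, at -0.66 (limma adjusted p = 0.104) Acta2 at -0.71 (adjusted p = 0.121) and Tagln at -0.36 (adjusted p = 0.307), while the collagens Col1a1 and Col1a2 were at 0.01 and 0.12. Twist1, Snai2 and Pdgfra are also expressed by fibroblasts. The part of such cells in the lineage gene readings was not tested.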

How the data were processed

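RNA of 6 samples was measured on 6 arrays. The deposited values are linear intensities, with MAS5 named, without a version, by the submitters' processing notes. The trimmed mean of each array was 100.0, so the authors' scaling was kept. Gene names came from the platform annotation. The lineage genes, lists and tests were chosen with earlier results of these data known.

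Tests used log2(value + 2), a scale that shrinks changes at low signal. After 66 control probe sets were left out, a probe set entered the tests when its mean over the 6 arrays reached the 40th percentile (20.9 units). This kept 7453 probe sets and 19 of 38 lineage genes. limma 3.58.1 (R 4.3.3; lmFit, eBayes) fitted the 6 arrays together, each line having its own mean, on 3 residual and 3.17 prior degrees of freedom. Benjamini-Hochberg adjustment ran over all probe sets tested, and 0.05 was the threshold. The smallest two-sided p that permuting 2 arrays against 4 allows is 0.0667. An at-least fold sets the geometric mean of the brighter line against that of the other line's array backgrounds, or its own signal where higher.

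On simulated data with 7453 probe sets and 200 changed, the null average contrast recovered 89.3% of 2-fold and 99.2% of 4-fold changes. The simulation drew independent noise at the fitted spread and gave both null lines the same change. Changes as small as those fitted for the tested lineage genes (-0.53 to 0.20 on the log2 scale) were not simulated. Each group's 4 genes with the smallest p in the null average and the 3 with the smallest p between null lines are given in full, as are any past the threshold. From each further list, genes past the threshold and the 2 with the smallest p are named, and other genes were picked after their values were seen. Alternatives were the pseudocount, filter, scaling, spread, replicate block, pooled null arrays and leaving out each array. Figures used matplotlib 3.10.9.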

Additional observations from a re-analysis of the deposited data

How the results depend on the processing

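The count of lineage genes past the threshold was 0 in all 4 contrasts under every alternative run, and also when every probe set of a gene was counted. The log2 changes of the 10 genes given in full kept their direction, with adjusted p of 0.193 or more, in the 126 values obtained. The calls of Col4a2 and Fbxo15, markers outside the lineage list, kept their direction and stayed past the threshold in 5 and 3 of 13 alternatives, chosen for them after seeing the data. Removing the filter, changing the spread, adding the replicate block and pooling the null arrays leave an estimate unchanged by design. Those settings could not change a direction, and most of the 10 genes were picked by their small p in this same contrast. Twist1 fell below the filter without either wild-type array, and 2 other values were lost in the same way. The median of the streak genes (-0.29) was -0.20 without the filter, -0.17 with a pseudocount of 16, -0.21 with quantile normalization, and between -0.39 and -0.10 when an array was left out. With the highest control of any array as background on all of them, an alternative chosen after seeing the data, 12 genes in place of 17 were above background throughout.

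The number of probe sets called over the whole array was less stable, and the cause was not tested. In the null average it was 31, against 8 without the filter, 54 with a pseudocount of 16, 101 with a spread that follows the signal and 7 to 13 without one array. In null line 1 it was 10, against 5 without the filter, 42 with that spread and 4 to 10 without one array. In null line 2 it was 19, against 5 without the filter, 31 with a pseudocount of 16, 92 with that spread and 0 to 10 without one array. Between the null lines it was 2, against 0 without the filter, 0 whichever array was left out and 1 with a pseudocount of 16 or quantile normalization.

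With the experiment number as a replicate block, the null average gave 14 probe sets and the line contrast 0. The deviations of same-numbered arrays correlated with r between 0.05 and 0.09 across probe sets. A correlation over all probe sets cannot show whether same-numbered arrays share a culture or a batch, which the labels do not state. Signals near background limit what can be said of the 21 lineage genes not above it on every array.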

Other observations

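Markers of other early lineages were read beside the endoderm and mesoderm genes, and none of those tested passed. Of 6 neuroectoderm markers, 3 were tested and these had positive changes in the null average. The other 3 lay below the filter and averaged less in null cells, with 15.7 and 22.6 units for Sox1, 11 and 16.2 for Pax6 and 2.8 and 4.5 for Map2 (null, then wild type). Tubb3, a neuronal tubulin, averaged 714 ± 92.1 in null cells and 602 ± 117 in wild-type cells (log2 change 0.25, limma adjusted p = 0.511), and Nes, an intermediate filament of neural progenitors, 259 ± 32.3 and 235 ± 9.4 (0.13, adjusted p = 0.762; SD, n = 4 null and 2 wild-type arrays). Of 5 trophoblast markers, Cdx2 and Elf5 were at background on every array, and Tfap2c and Ascl2 had changes of 0.06 and 0.10 (limma adjusted p = 0.893 and 0.934).

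Utf1, a chromatin factor of undifferentiated cells, averaged 610 ± 84.4 in null cells and 466 ± 18.1 in wild-type cells (log2 change 0.38, limma adjusted p = 0.284). Fbxo15, an F-box gene of undifferentiated cells, was the only call among the 10 embryonic stem cell markers, and it rose (1.05, limma adjusted p = 0.0465), though it passed in none of the 6 fits without 1 array.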
